A study of Xenopus laevis with 12 samples.

Results

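The transcripts described here are those of the mitochondrial genome in the hindbrain of Xenopus laevis tadpoles, measured by RNA sequencing after knockdown of barhl1. The members were chosen by their IDs and their place in the count files, not by their values. They are all 24 IDs that start with XBmRNA and the 13 IDs from XBXL10_1g44445 to XBXL10_1g44457 that lie among them in file order. These make 37 of the 44478 gene IDs in the files. Rhombomere 1, the most anterior part of the hindbrain and the origin of the cerebellum, was dissected at stage 41 per the sample labels. The embryos had received a barhl1 morpholino labelled MOBarHl1_1 (MO1 here), a barhl1 morpholino labelled MOBarHl1_2 (MO2 here) or a control morpholino, with 4 libraries in each of these 3 groups. A morpholino is an antisense oligonucleotide that blocks translation or splicing of its target RNA, and barhl1 encodes a homeodomain transcription factor. The genotype label is the same for all 12 libraries, so by their labels the groups differ in the morpholino and not in genotype. A shared label does not show that the embryos of the groups had the same parents. The series' design text states injection into the dorsal blastomeres of early embryos, 3 pooled rhombomeres per replicate and poly(A) selection. It gives a later stage and fewer replicates than the labels, which were followed, and calls the replicates biological. Since the labels do not say which embryos a library came from, p-values measure the spread between these libraries, which may in part be technical.

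The mitochondrial genome of vertebrates is a small circle present in many copies per cell. It encodes subunits of the respiratory chain and of ATP synthase (the ND subunits of complex I, cytochrome b of complex III, the COX subunits of complex IV and the ATP6 and ATP8 subunits of ATP synthase), together with the ribosomal and transfer RNAs that translate them. Both strands are transcribed into long precursors that are cut largely at the transfer RNAs that lie between the other genes. Most mitochondrial messenger RNAs then receive a poly(A) tail, whereas mature transfer RNAs are short and carry none, so a poly(A)-selected library of longer fragments is not made to capture them. In brain, a tissue with a high demand for ATP, these messenger RNAs are abundant. In pieces of tissue, a lower level can come from fewer cells of a type or from less RNA per cell, and these cannot be told apart.

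The label of the set was checked against the order of the IDs. The files do not pair any ID with a gene name, and 0 of the IDs matched the RefSeq gene table (assembly Xenopus_laevis_v10.1) by exact comparison, so no single ID is given a gene name or function here. That table lists 13 protein-coding genes on its mitochondrial record, in the order ND1, ND2, COX1, COX2, ATP8, ATP6, COX3, ND3, ND4L, ND4, ND5, ND6 and CYTB. Of the 12 pairs of consecutive genes in this list, 4 share at least 1 base and 8 do not. In file order, 4 of the 12 pairs of consecutive XBXL10 members have no XBmRNA ID between them and 8 have at least 1. The places were the same for 12 of 12 pairs, as the label of the set requires, although this was a check of the order of the rows and not of any sequence. For lack of names the level of barhl1 itself, the markers of the tissue and the nuclear genes of the respiratory chain were not analysed here.

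Counts differed widely among the members. The files give no gene lengths, so counts can be compared for the same ID across libraries but do not rank expression between IDs. XBXL10_1g44447 had the most counts of all 44478 IDs, with 250701 to 267486 reads in the MO1 libraries, 231435 to 322820 in the MO2 libraries and 227650 to 255366 in the controls. XBXL10_1g44451 came second among all IDs and XBXL10_1g44448 sixth, with means of 118278 and 97879 reads over the 12 libraries. These 3 IDs held 84.2% of the counts of the 13 XBXL10 members. A further 8 XBXL10 members averaged between 1112 reads (XBXL10_1g44445) and 18786 reads (XBXL10_1g44457). The other 2, XBXL10_1g44453 and XBXL10_1g44456, averaged 14.1 and 15.2 reads, and each of them directly adjoins another XBXL10 member in file order with no XBmRNA ID between. This is not particular to IDs with few reads. XBXL10_1g44449, XBXL10_1g44450 and XBXL10_1g44451 adjoin each other in the same way and averaged 14175.5, 12447 and 118278 reads. Since the strand setting of the counting is not given in the sources used here, reads that fall on overlapping neighbours may have been credited to either or to none. This was not tested.

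The XBmRNA members held few reads. XBmRNA83516 averaged 3665 reads and XBmRNA83514 averaged 1627, and together they held 89.5% of all reads on the 24 XBmRNA IDs. Both lie before the first XBXL10 member in file order. XBmRNA83527 followed with a mean of 452 reads and XBmRNA83528 with 71.9. Of the remaining IDs, 4 had a mean count between 10 and 100. The last 16 had a mean under 10 and held 233 reads in all over the 12 libraries, and 2 of these, XBmRNA83517 and XBmRNA83523, had no read in any library. These 16 did not pass the filter on low counts and were left out of the tests reported. XBmRNA83521, named after its values were seen, had 7, 6, 6 and 7 reads in MO2 replicates 1 to 4, against 4, 1, 4 and 0 in control replicates 1 to 4. It had 3, 2, 3 and 1 reads in the MO1 libraries, so its MO2 libraries lay above all the others, also after scaling to library size. Of all genes tested, 4.05% had all their MO2 libraries above all controls. That share covers genes that passed the filter, which this ID did not, so it is not a like measure for IDs with so few reads. Without the filter its unadjusted p in edgeR was 0.0537 for MO2 against control, with an adjusted p of 0.319. Of the same 16 IDs, XBmRNA83530 was also above the controls in reads, with 12, 10, 10 and 10 in the MO2 libraries against 9, 8, 8 and 8. After scaling to library size its MO2 libraries overlapped the controls.

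**Figure D1:**
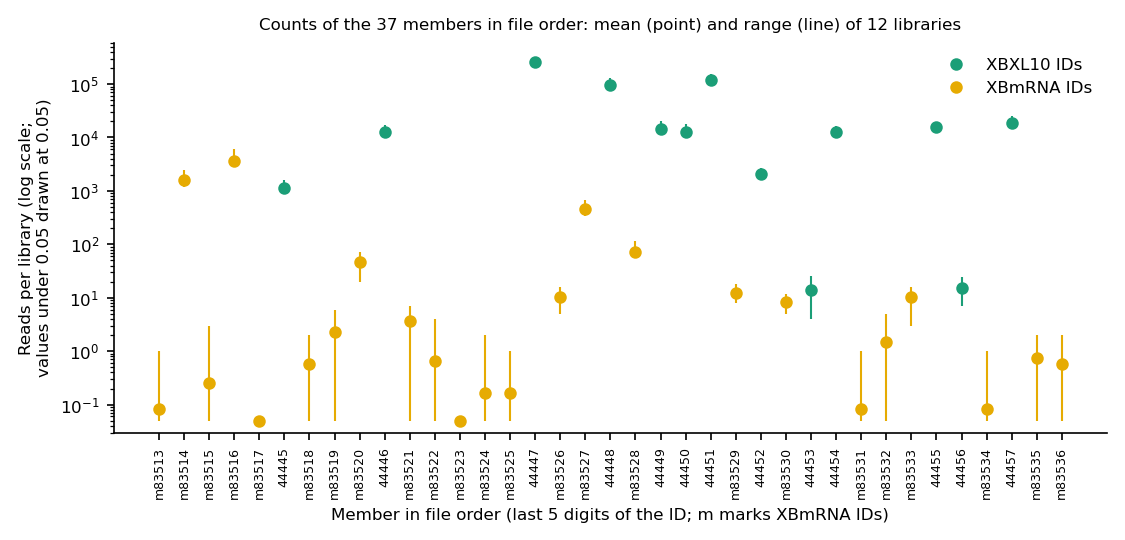
Reads per library (vertical axis, log scale) for the 37 members in file order (horizontal axis), with a point at the mean and a line over the range of the 12 libraries, green for XBXL10 IDs and yellow for XBmRNA IDs. Of the XBXL10 IDs, 11 average over 1000 reads, and 2 average 14.1 and 15.2, beside a neighbour with many more.

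Depth and likeness of the libraries were as follows. The total count per library was 24973125 to 27444633 in the MO1 group, 26460131 to 29433422 in the MO2 group and 23278184 to 28681144 in the control group. MO2 replicates 3 and 4 had mean Spearman correlations of 0.981 and 0.983 with the other morpholino libraries, where the other 6 morpholino libraries had 0.984 to 0.988. Control replicate 1 was nearer on average to the morpholino libraries (0.989) than to the other controls (0.987), and MO1 replicate 3 was nearer to the controls (0.989) than to the other morpholino libraries (0.986). MO2 replicate 1 was also nearer to the controls, by a smaller margin (0.9878 against 0.9875).

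The members together took a small part of each library, from 1.88% to 2.46% of all counts. They held 2.13%, 2.25%, 2.02% and 2.17% of all counts in MO1 replicates 1 to 4. In MO2 replicates 1 to 4 they held 2.28%, 1.88%, 2.46% and 2.42%. In control replicates 1 to 4 they held 2.16%, 2.09%, 1.95% and 1.91%. The group means were 2.14% ± 0.0964 with MO1, 2.26% ± 0.263 with MO2 and 2.03% ± 0.117 in the control (SD, n = 4 each). MO2 replicates 1, 3 and 4 lay above all controls and MO2 replicate 2 below all of them, so the MO2 range encloses that of the control. The MO1 libraries overlapped the controls, with 2 of 4 above the highest control. Counting error was small beside this spread: the 95% Wilson interval of MO2 replicate 2, for example, was 1.88% to 1.89%, an interval that covers counting error only. No test was made on this sum.

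The XBmRNA IDs made up 0.0208% ± 0.00146 of counts with MO1, 0.0246% ± 0.00538 with MO2 and 0.0208% ± 0.00199 in the control (SD, n = 4 each). Set against the XBXL10 members of the same library, there were 10.7, 9.39, 9.49 and 9.64 XBmRNA reads per 1000 in the MO1 libraries. There were 10.3, 9.47, 11.6 and 12.4 in the MO2 libraries and 10.1, 11.3, 9.93 and 10.2 in the controls. MO2 replicates 3 and 4 were the highest of all 12 libraries by this ratio as well as by the sum, and the groups overlapped.

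**Figure D2:**
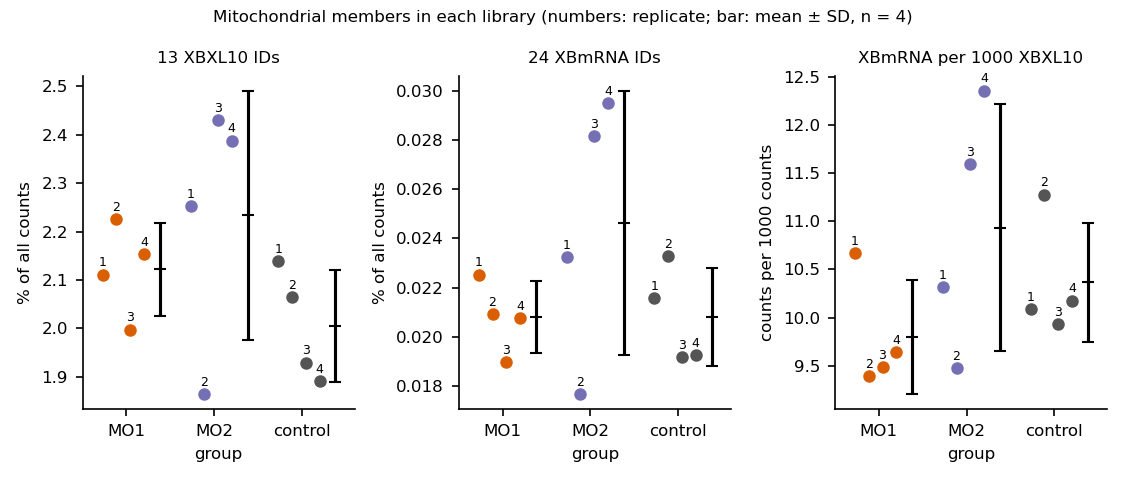
The 13 XBXL10 IDs and the 24 XBmRNA IDs as a percentage of all counts, and XBmRNA counts per 1000 XBXL10 member counts (vertical axes), for MO1, MO2 and control libraries (horizontal axis). Each point is a library marked with its replicate number, and the bar is the mean ± SD of 4. MO2 replicates 1, 3 and 4 lie above all controls in the first panel and MO2 replicate 2 below them.

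MO2 was compared with the control to ask whether this morpholino moved the mitochondrial transcripts. Of the 37 members, 21 passed the filter on low counts and could be tested: all 13 XBXL10 IDs and 8 XBmRNA IDs. No member passed an adjusted p of 0.05 (edgeR quasi-likelihood test, Benjamini-Hochberg over 26712 genes), where 0.0112% of all genes tested did. The fitted log2 fold change lay above 0 for 20 of the 21 members, against 48.3% of all genes tested, and its median was 0.23 for the members and -0.01 for all genes. At an unadjusted p under 0.05, 6 of 21 members were higher and 0 lower, beside 11.2% and 9.45% of all genes. DESeq2 called 1 of 21 members, beside 4.32% of all genes, and limma-voom called 0 members and 0% of all genes. The share of members called by DESeq2 was thus near that of all genes. Members come from the same genome and the same precursors, so their signs are not independent of each other.

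XBXL10_1g44445 was the XBXL10 member with the smallest p in this comparison. Its level was 44.3, 39.4, 54.7 and 49.4 CPM (read counts scaled to library size by TMM) in MO2 replicates 1 to 4, against 40.6, 38.9, 34.9 and 35.3 CPM in control replicates 1 to 4. MO2 replicates 1, 3 and 4 lay above all controls and MO2 replicate 2 lay among them. The log2 fold change was 0.33 (SE 0.11), with an edgeR adjusted p of 0.146.

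XBXL10_1g44449 and XBXL10_1g44450, which adjoin each other in file order, had like values. XBXL10_1g44449 was at 572, 461, 719 and 659.7 CPM in MO2 replicates 1 to 4 and at 524, 489, 484 and 458 CPM in control replicates 1 to 4. XBXL10_1g44450 was at 509, 406, 634 and 570.4 CPM with MO2 and at 465, 442, 414 and 379 CPM in the control. For both, MO2 replicates 1, 3 and 4 were above all controls and MO2 replicate 2 was within their range. The log2 fold change of XBXL10_1g44449 was 0.30 (SE 0.11) and had an adjusted p of 0.165 in edgeR. That of XBXL10_1g44450 was 0.32 (SE 0.11), its adjusted p in edgeR being 0.161. The ratio of the first to the second stayed between 1.11 and 1.21 over the 12 libraries.

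XBXL10_1g44446 and XBXL10_1g44457 were the other XBXL10 members at an unadjusted p under 0.05. XBXL10_1g44446 averaged 533 ± 68.5 CPM with MO2 and 456 ± 36.2 CPM in the control (SD, n = 4 each), with a fitted difference of 0.23 log2 units (SE 0.10) and adjusted p = 0.206 in edgeR. XBXL10_1g44457 averaged 761 ± 123.3 CPM with MO2 and 652 ± 40.0 CPM in the control (SD, n = 4 each), with a fitted difference of 0.22 log2 units (SE 0.10) and adjusted p = 0.235 in edgeR. In both cases the groups overlapped through MO2 replicate 2.

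The 3 members with the most counts differed less. XBXL10_1g44447 was at 10680.3, 8688, 10749.7 and 11105 CPM in MO2 replicates 1 to 4, against 9867, 9309, 8643 and 8636 CPM in control replicates 1 to 4. XBXL10_1g44451 averaged 4712 ± 715 CPM with MO2 and 4134 ± 309 CPM in the control, and XBXL10_1g44448 averaged 3868 ± 598 and 3451 ± 269 CPM in the same groups (SD, n = 4 each). Their log2 fold changes were 0.18 (SE 0.09), 0.19 (SE 0.11) and 0.16 (SE 0.11), in the same order. The edgeR adjusted p values were 0.293, 0.318 and 0.384. The 95% interval of the log2 fold change of XBXL10_1g44447 ran from -0.02 to 0.38 on the log2 scale. A change of 1 log2 unit in either direction lies outside it.

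The remaining 5 XBXL10 members were also not called. XBXL10_1g44452, XBXL10_1g44454 and XBXL10_1g44455 averaged 82.6 ± 12.96, 515 ± 52.8 and 626 ± 50.3 CPM with MO2, against 72.2 ± 6.14, 457 ± 42.4 and 576 ± 36.6 CPM in the control (SD, n = 4 each). Their log2 fold changes were 0.19, 0.17 and 0.12, with edgeR adjusted p between 0.318 and 0.421. XBXL10_1g44453 and XBXL10_1g44456 had the largest fitted log2 fold changes of any member with MO2, 0.66 (SE 0.46) and 0.52 (SE 0.39), and they rest on 11 to 25 reads per MO2 library and 6 to 24 per control library.

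XBmRNA83527 had the smallest p of all members with MO2. It had 512, 515, 676 and 610 reads in MO2 replicates 1 to 4, or 19.3, 19.3, 23.5 and 20.98 CPM. The controls had 406, 384, 464 and 349 reads, or 17.5, 15.7, 15.7 and 12.99 CPM. All 4 MO2 libraries were above all 4 controls, the only tested member of which this was so, where the groups did not overlap in this direction for 4.05% of all genes tested. The log2 fold change was 0.43 (SE 0.12), with an edgeR adjusted p of 0.133. It passed without control replicate 1 (edgeR adjusted p = 0.0362), where 7.36% of all genes passed, and with DESeq2 (adjusted p = 0.0261), where 4.32% did. It was the 1 member of 21 to pass in either case, a share near or below that of all genes. Over all 23 alternatives its adjusted p ran from 0.0237 to 0.599 and its log2 fold change from 0.32 to 0.49. The highest p was that without MO2 replicates 3 and 4, a setting chosen after seeing the data, in which the fold change was also the smallest. The lowest p was that without control replicate 1 and MO1 replicate 3. These were also chosen after seeing the data, for their likeness to the opposite group.

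XBmRNA83516 reached 151, 104, 173 and 206 CPM in MO2 replicates 1 to 4, against 135, 143, 114 and 114 CPM in control replicates 1 to 4. Its spread was the widest of the 14 members with a mean count of at least 100, and MO2 replicate 4 stood highest. The log2 fold change was 0.32 (SE 0.16, edgeR adjusted p = 0.279). XBmRNA83514 averaged 62.8 ± 16.9 CPM with MO2 and 58.0 ± 6.95 CPM in the control (SD, n = 4 each), with a fitted difference of 0.11 log2 units (SE 0.16) and adjusted p = 0.707 in edgeR. XBmRNA83528 averaged 3.19 ± 0.805 and 2.47 ± 0.452 CPM in the same groups (SD, n = 4 each), with an edgeR adjusted p of 0.346. XBmRNA83526 was the single member with a fitted value under 0, at -0.20 (SE 0.43), and had 6 to 13 reads per MO2 library and 5 to 16 per control library.

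**Figure D3:**
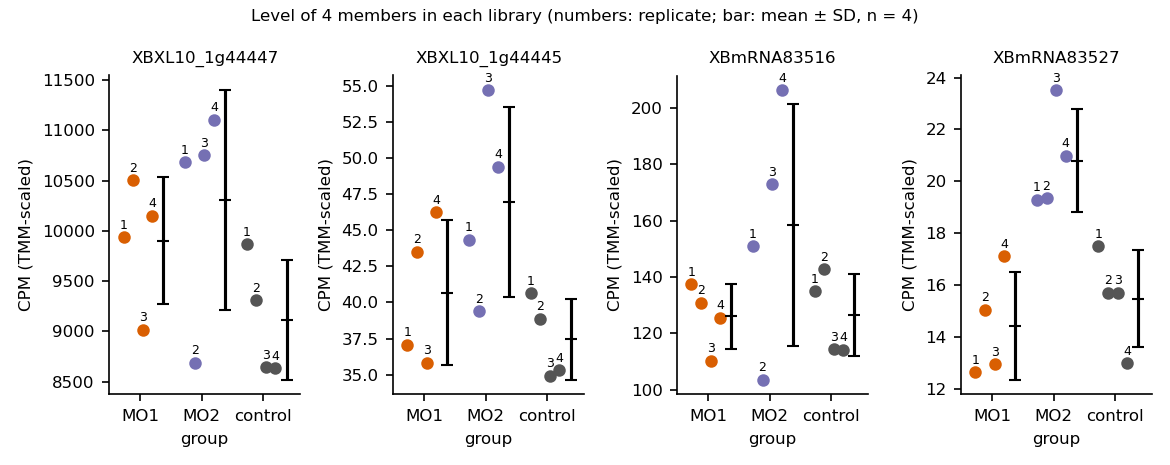
Level in CPM (vertical axes) of XBXL10_1g44447, XBXL10_1g44445, XBmRNA83516 and XBmRNA83527 in each MO1, MO2 and control library (horizontal axis), marked with the replicate number, with the mean ± SD of 4 libraries as a bar. For XBmRNA83527 the MO2 libraries (19.3 to 23.5 CPM) lie above all MO1 (12.6 to 17.1 CPM) and control (12.99 to 17.5 CPM) libraries, while the groups overlap in the other panels.

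The values with MO2 leaned on MO2 replicates 3 and 4. Of the 14 members with a mean count of at least 100, 12 had these libraries as their 2 highest of the 12, and 11 were highest in MO2 replicate 3. MO2 replicate 2 was the lowest library of all for 6 of the 14. The shares of all genes with these orders of libraries were not computed, so the orders may not be particular to the members. MO2 replicates 3 and 4 also had the highest total counts of the 12 libraries, 29371968 and 29433422. Without MO2 replicates 3 and 4 the median log2 fold change of the 22 members then tested was 0.074, and 1 member was at an unadjusted p under 0.05 in edgeR, beside 8.26% of all genes. Without MO2 replicate 2 the median was 0.28 and 12 of 21 members were at an unadjusted p under 0.05, beside 23.7% of all genes. The count was 2 of 22 members without MO2 replicate 3, beside 13.2% of all genes, and 3 of 22 without MO2 replicate 4, beside 15.4%. No member passed the adjusted threshold in these 4 settings. The 10 IDs with the most counts outside the members, taken in each library, also held most in MO2 replicates 3 and 4. There they held 3.59% and 3.54% of the counts not on members, and 3.11% in MO2 replicate 2. The group means were 3.30% ± 0.200 with MO1, 3.39% ± 0.221 with MO2 and 2.98% ± 0.244 in the control (SD, n = 4 each). The part of the make-up of MO2 replicates 3 and 4 in the difference with MO2 was not tested.

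With MO1 the values of the members lay close to those of the control. No member passed an adjusted p of 0.05 in edgeR, DESeq2 or limma-voom, 0 of the 21 tested were at an unadjusted p under 0.05 in edgeR, and the adjusted threshold was passed by 0% of all genes in edgeR, 1.5% in DESeq2 and 0% in limma-voom. At an unadjusted p under 0.05, 15.1% of all genes were found. The fitted log2 fold change was above 0 for 14 of 21 members and below 0 for 7, with a median of 0.09, where 50.1% of all genes lay above 0 and their median was 0.00. This small median moved with the libraries and members taken in. It was 0.053, 0.017 and 0.044 without MO1 replicates 1, 2 and 4, and 0.048 and 0.0045 without control replicates 3 and 4. In these settings 22 members were tested. It was 0.073, also over 22 members, without MO2 replicate 3, a library of neither group compared. It was 0.032 over 35 members with no filter and 0.041 over 16 members with a filter of 1 CPM in 4 libraries. All these shifts were under 0.137 log2 units, the mean replicate SD of the median level of members with a mean count of at least 100. That SD is between single libraries and is larger than the median of 0.09 itself. A shift under it can thus remove the whole median, so it does not show that the median was stable.

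XBXL10_1g44447 was at 9939, 10505, 9017 and 10150.1 CPM in MO1 replicates 1 to 4, against the control values given above. The MO1 libraries other than MO1 replicate 3 lay above all controls. The same held for XBXL10_1g44448, XBXL10_1g44451 and XBXL10_1g44457. For XBXL10_1g44448 the margin was slight, 3719.7 CPM in MO1 replicate 1 against 3719.5 in control replicate 1. It was also small for XBXL10_1g44457, 695.0 against 692.0 CPM in the same libraries. Of the 14 members with a mean count of at least 100, these 4 had 3 MO1 libraries above all controls. Another 4 had 0, and no member of the 14 had all 4. The share over all genes was not computed. The log2 fold change of XBXL10_1g44447, 0.12 (SE 0.09), had the smallest p of any member with MO1, an edgeR adjusted p of 0.544. XBXL10_1g44445 was at 37.1, 43.5, 35.8 and 46.3 CPM, and its log2 fold change of 0.12 (SE 0.11) had an edgeR adjusted p of 0.611.

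XBmRNA83516 was at 138, 130.9, 110.3 and 125.6 CPM in MO1 replicates 1 to 4 and XBmRNA83514 at 71.9, 57.8, 58.3 and 60.5 CPM, and both overlapped the controls. XBmRNA83527 was at 12.6, 15.04, 12.9 and 17.1 CPM in MO1 replicates 1 to 4, within or just under the control range of 12.99 to 17.5 CPM. Its log2 fold change was -0.10 (SE 0.12, edgeR adjusted p = 0.703). The widest values belonged to members with few reads. XBmRNA83520 and XBXL10_1g44453 had the smallest fitted log2 fold changes, -0.33 (SE 0.27) and -0.30 (SE 0.48). XBXL10_1g44456 and XBmRNA83529 had the largest, 0.33 (SE 0.39) and 0.28 (SE 0.36). Among the 14 members with a mean count of at least 100, the fitted values with MO1 ran from -0.10 to 0.12.

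Control replicate 1 and MO1 replicate 3, which were each nearer to the opposite group in overall expression, bear on the MO1 values. The setting without both was chosen after seeing the data. As these libraries were left out for their likeness to the opposite group, a wider difference between the groups is partly built in. MO2 replicate 1, also nearer to the controls, was kept. The median log2 fold change of the members with MO1 was then 0.13, against 0.0024 over all genes. Of the members, 19 of 21 lay above 0 and 0 passed, the smallest edgeR adjusted p being 0.171. In the same setting 12.9% of all genes passed with MO1. With MO2, 1 of 21 members passed there, XBmRNA83527 (edgeR adjusted p = 0.0237), a smaller share than the 11.9% of all genes.

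**Figure D4:**
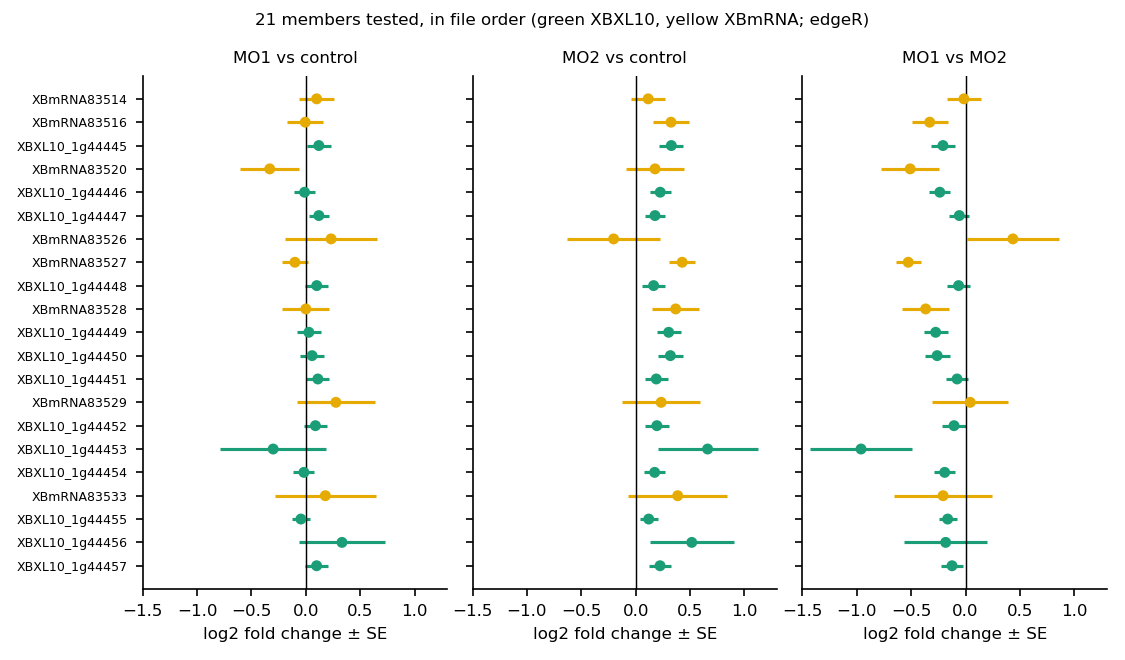
Fitted log2 fold change ± SE (horizontal axes) of the 21 members tested, in file order down the page, for MO1 against control, MO2 against control and MO1 against MO2, green for XBXL10 IDs and yellow for XBmRNA IDs. In the middle panel 20 of 21 members lie above 0, and no member passed an adjusted p of 0.05 in any panel.

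Taken as a mean, MO1 and MO2 differed from the control for no member at the adjusted threshold in edgeR, which 0.0337% of all genes passed. The fitted value was above 0 for 20 of 21 members, beside 48.9% of all genes. XBXL10_1g44445 had the smallest p, with a log2 fold change of 0.22 (SE 0.10) and an edgeR adjusted p of 0.201, and it was the single member at an unadjusted p under 0.05, beside 21.1% of all genes. The median log2 fold change was 0.16 over the 21 members and -0.01 over all genes. The median was 0.062 without MO2 replicates 3 and 4 and 0.21 without control replicate 1 and MO1 replicate 3, and 0.10 without control replicate 4. The count at an unadjusted p under 0.05 was 9 without MO2 replicate 2, beside 23.1% of all genes. It was 2 without MO1 replicate 3, beside 25.7%, and 3 without control replicate 1, beside 29.3%. It was 0 without MO1 replicate 2 or 4, MO2 replicate 3 or 4, or control replicate 3 or 4. In these settings 11.7% to 19.4% of all genes were at an unadjusted p under 0.05. DESeq2 called 0 members, beside 5.3% of all genes, and limma-voom 0 members and 0% of all genes. Both morpholino groups were set against the same 4 controls, so the values for MO1 and MO2 are not independent of each other.

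The direct comparison of MO1 with MO2 does not use the controls for its difference. It asked whether the members differed between the morpholinos. XBmRNA83527 was at 14.4 ± 2.08 CPM with MO1 and 20.8 ± 1.99 CPM with MO2 (SD, n = 4 each), and all 4 MO1 libraries were below all 4 MO2 libraries, as were 1.18% of all genes tested. The log2 difference was -0.53 (SE 0.12). Its unadjusted p was 0.000399, with a smaller p for 0.0374% of all genes tested, and its edgeR adjusted p was 0.649, so it did not pass. With DESeq2 the adjusted p was 0.0494, just under the threshold. Over the alternatives the adjusted p ran from 0.0494 to 1.000.

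At an unadjusted p under 0.05, 4 of 21 members were lower with MO1 and 0 higher, beside 3.54% and 3.81% of all genes. Besides XBmRNA83527 these were XBXL10_1g44446, XBXL10_1g44449 and XBXL10_1g44450, whose log2 differences were -0.24 (SE 0.10), -0.28 (SE 0.11) and -0.26 (SE 0.11). Their edgeR adjusted p lay between 0.652 and 0.661. None of the members passed in edgeR or limma-voom and 1 passed in DESeq2, where 0% of all genes passed in edgeR and limma-voom and 0.0412% in DESeq2. The count at an unadjusted p under 0.05 was 11 without MO2 replicate 2, beside 12.7% of all genes. It was 8 without MO1 replicate 2, beside 6.61% of all genes. It was 2 without MO1 replicate 1 or MO2 replicate 3, beside 5.17% and 4.63%, and 1 without MO2 replicate 4, beside 3.76%. The difference was above 0 for 2 of 21 members, beside 50.5% of all genes. The median log2 difference of the members was -0.19, and it was -0.07 without MO2 replicates 3 and 4.

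The members kept nearly the same proportions to each other. For the 14 members with a mean count of at least 100, the level of a member was compared with its share of the member counts of the same library. The median within-group SD was 0.160 log2 units for the level and 0.0738 for the share, and the share varied less than the level for 14 of 14. Each share is of a sum that includes the member itself. XBXL10_1g44447, XBXL10_1g44451 and XBXL10_1g44448 averaged 45.6%, 20.7% and 17.1% of that sum. For these IDs a smaller spread of the share was thus partly fixed in advance. The 6238 other genes with a mean count of at least 1000 had a median within-group SD of 0.129 log2 units in level. Pooled over the groups, the members' levels thus varied somewhat more between replicates than the median of these genes. The spread was not alike in the groups. For the members' summed percentage of all counts the SD was 0.0964 with MO1, 0.263 with MO2 and 0.117 in the control. The other genes were not compared group by group. Most of the members' within-group variation was shared with their sum. Whether sets of other genes share as much was not tested.

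XBXL10_1g44447 took 45.3% to 46.6% of the member counts in the MO1 libraries, 42.8% to 46.5% in the MO2 libraries and 44.7% to 45.7% in the controls. The lowest of these values was MO2 replicate 3, in which XBXL10_1g44449 and XBXL10_1g44450 had their highest shares, 2.86% and 2.52%. XBXL10_1g44451 took 20.2% to 21.2% with MO1, 19.9% to 21.5% with MO2 and 20.1% to 20.8% in the control. The share of XBXL10_1g44448 was 16.3% to 17.9% over all 12 libraries.

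XBmRNA83527 had the highest ratio of the 14, with a within-group SD as a share that was 0.858 of that of its level. It also had the fewest reads of the 14, a mean of 452 with a counting error of 4.71% per library. The part of counting error in this ratio was not tested. The share of XBmRNA83527 in the member counts was 0.0671% ± 0.00816 with MO1, 0.0916% ± 0.00894 with MO2 and 0.0770% ± 0.00635 in the control (SD, n = 4 each). The lowest MO2 library, at 0.0837%, was just above the highest control, at 0.0830%. MO2 replicate 2, in which the members as a whole were lowest, had the highest share of XBmRNA83527 of all 12 libraries, 0.103%. XBmRNA83516 took 0.586% ± 0.0358 with MO1, 0.685% ± 0.120 with MO2 and 0.630% ± 0.0389 in the control (SD, n = 4 each), with 0.843% in MO2 replicate 4.

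**Figure D5:**
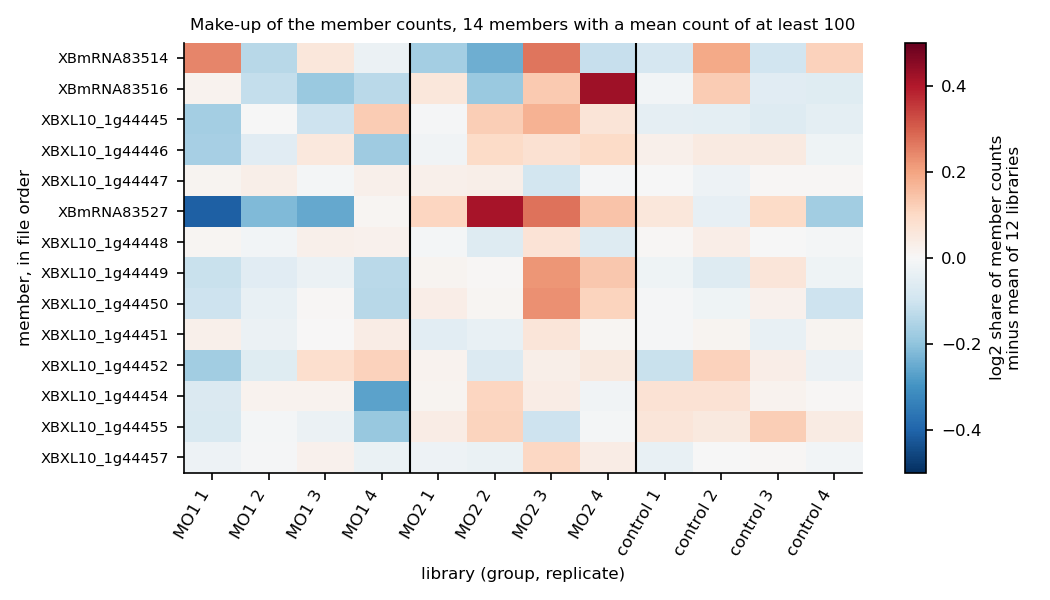
Share of each of 14 members in the member counts of a library, as log2 minus the mean of the 12 libraries (color), with members in file order down the page and the MO1, MO2 and control libraries across. Most rows are near 0, and XBmRNA83527 ranges from 0.0585% of member counts in MO1 replicate 1 to 0.103% in MO2 replicate 2.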

How the data were processed

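The authors deposited raw read counts per gene ID, 1 file per library. Per the submitters' processing notes these were made with featureCounts 2.0.1, and per the file headers from trimmed reads. Per the labels' protocols RNA was extracted with Trizol and libraries came from Illumina's stranded ligation kit. No aligner, genome build, annotation or strand setting is given in the sources used here, so reads of overlapping genes, or of near-identical copies in the nuclear genome, may be credited uncertainly. Groups and replicate numbers came from the labels.

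The members and lists were chosen with earlier results of these data known. The filterByExpr function kept 26712 genes. After TMM scaling a single quasi-likelihood model (edgeR 4.0.16 in R 4.3.3, robust) took in the 12 libraries, leaving 9 residual degrees of freedom and a common biological coefficient of variation of 0.173. Tests were two-sided, and p-values were adjusted by Benjamini-Hochberg across the table at 0.05. The standard error of a fold change was derived from its test statistic. The procedure was run on simulated data in which 200 genes, drawn separately, were changed 2-fold in MO1 alone. This does not measure how well small differences shared by the members would be found. Alternatives used other scalings and filters, DESeq2 (1.42.0), voom in limma (3.58.1), a block for replicate number, a fit of the compared groups alone and the omission of each library.

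The rule for named IDs took the 13 XBXL10 members, the 4 XBmRNA members with the most counts, members past the threshold, and the 2 largest and 2 smallest log2 fold changes with each morpholino. A chi-square test of counts between libraries of a group gave 6.41 to 28.9 per degree of freedom. The most alike pair of all, MO2 replicate 1 with control replicate 1, joins different groups and gave 4.32. No library thus repeats the counts of another, which does not show that the libraries came from different embryos.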

Additional observations from a re-analysis of the deposited data

Results flagged for a closer look

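For 22 measures, each of the 3 groups of 4 was searched for a library standing far off from the rest. This was so in 2 of 66 cases, and chance alone gives about 1 in 20, or 3.3. XBmRNA83528 was at 3.19 CPM in MO1 replicate 4, against 2.18 to 2.32 CPM in the other MO1 libraries. XBXL10_1g44450 was at 475 CPM in MO1 replicate 2, against 429.5 to 433 CPM in the other MO1 libraries.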

How the results depend on the processing

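The number of members called was 0 in each of the 4 comparisons as reported. DESeq2 called 1 member with MO2 and 1 in MO1 against MO2, both XBmRNA83527, beside 4.32% and 0.0412% of all genes. Leaving out a library gave 0 to 1 call with MO2, the 1 being XBmRNA83527 without control replicate 1 (7.36% of all genes), and 0 in the other comparisons. Without control replicate 1 and MO1 replicate 3 there was 1 call with MO2 (11.9% of all genes). The median log2 fold change with MO2 was 0.074 without MO2 replicates 3 and 4, against 0.23 as reported. Both of these settings were added once the data had been seen. The cause was not tested. Leaving out 1 library gave medians of 0.00 to 0.10 with MO1, 0.17 to 0.28 with MO2, 0.10 to 0.19 for the mean of both and -0.25 to -0.15 for MO1 against MO2. The other values kept their side of the threshold, but 22 of the 80 fitted values of single named members, none of them called, changed sign under at least 1 alternative, in 63 cases over the alternatives, 5 of these with MO2. In a fit with a replicate block, 0 members were called in each comparison and the smallest edgeR adjusted p with MO2 was 0.204. The labels do not state that the numbers pair the libraries. Deviations from the group means correlated above 0.1 in 4 of 12 pairs that share a number, and lay between -0.39 and 0.34. Those above were all the pairs of libraries numbered 3 (0.1002, 0.288 and 0.318) and MO1 replicate 1 with control replicate 1 (0.342). Pairs from different groups that do not share a number ranged as widely. They lay between -0.433 (MO1 replicate 3 with control replicate 1) and 0.459 (MO1 replicate 1 with MO2 replicate 2). A batch shared by number was not tested. Few reads limit what can be said of the 16 XBmRNA IDs with a mean under 10 reads. Why they had so few was not tested. With no filter, 7 members with MO2 and 1 with MO1 were at an unadjusted p under 0.05, beside 16.1% and 11.9% of all genes. The added ones were XBmRNA83536 and XBmRNA83518, with at most 2 reads in any library. For the 2 XBXL10 IDs with few reads, the counting error of a library is 26.6% for XBXL10_1g44453 and 25.6% for XBXL10_1g44456.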
